A study of Sus scrofa with 6 samples.

Results

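The genes described here build, hold together and cut the extracellular matrix of the pig uterus. They were taken by their symbols: every probe set whose single symbol in the array's annotation begins with COL and a digit, LAMA, LAMB, LAMC, MMP, TIMP or ADAM, or is FN1, BGN, DCN, LUM, SPARC, FBN1, ELN, POSTN, THBS1, THBS2, LOX or VCAN. This gave 101 of 23999 probe sets, or 51 of the 6765 genes named on the array. The rule used no expression value, but it was set with earlier results of these data known. Among them 25 genes had 1 probe set and 26 had several. There were 0 probe sets for a LAMA gene and 0 for ELN, so laminin alpha chains and elastin were not analysed here.

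The study compared the horns of the uterus within a sow. In weaned crossbred Landrace x Large White sows, spermatozoa were placed in one oviduct by laparoscopy and the diluent alone, Beltsville Thawing Solution, in the other, and both horns were removed by hysterectomy on day 6. The horn on the inseminated side then held embryos at the blastocyst stage and the opposite horn held oocytes, so the presence of embryos cannot be told apart from exposure to semen. Cells were scraped from the lining at the tip of each horn with a glass slide, and the RNA of a horn was hybridized to 1 Affymetrix porcine array, giving 3 arrays of uterus containing embryos and 3 of uterus containing oocytes. The replicate number of an array was taken as the sow, so both horns of a sow shared its cycle, anaesthesia and surgery.

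Fibrillar collagens give connective tissue its strength, and small proteoglycans such as decorin and lumican bind to the fibrils and control their assembly. Type IV collagen and laminins form the basement membrane, the sheet on which the epithelium rests. Matrix metalloproteinases (MMPs) and the ADAM and ADAMTS proteases cut matrix and cell surface proteins, and the tissue inhibitors of metalloproteinases (TIMPs) restrain them. Most of these genes are used by stromal fibroblasts, smooth muscle and vessels more than by the epithelium itself.

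The values are array signals in arbitrary units on a linear scale, as deposited, and differences are on a log2 scale after normalization between the arrays. Taken at their brightest probe sets, the epithelial markers EPCAM, CDH1, KRT8, KRT18, KRT19 and MUC1 summed to 7391 to 10058 on the 6 arrays. VIM (vimentin), taken here as a marker of stromal fibroblasts, was also measured, at 1209 to 2670. ACTA2 (smooth muscle actin) was at 337 to 1559, so the scrapings held RNA of cells under the epithelium. In such mixed tissue, fewer cells of a type and less RNA per cell cannot be told apart. Signals of the matrix probe sets ran from 0.1 to 4247. The median probe set of the array had a signal of 30.4, and 40 matrix probe sets, which cover 32 genes, lay above it. The other 61 lay below it, and 19 genes had no probe set above it.

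Matrix genes differed little between horns with embryos and horns with oocytes. None of the 101 probe sets passed the test between the groups (limma, 0 with an adjusted p under 0.05, where the share over all probe sets was 0%). Their median log2 difference, embryos minus oocytes, was 0.03, beside 0.01 over all 23999 probe sets. In the 3 sows taken one by one the median was -0.03, -0.05 and 0.11. With embryos 54 probe sets were higher and 47 lower. A total of 10 were higher in all 3 sows, against 14.9% of all probe sets, and 11 were lower in all 3 sows, against 14.8%. The shares of the matrix genes were therefore no larger than those of the array. Without adjustment, 1 probe set was higher with p under 0.05 (1.3% of all probe sets) and 1 was lower (1.59%). With the sow as a block in the model, 1 was higher (3.75% of all) and 3 were lower (4.95% of all), and the smallest adjusted p was 0.316. Standard errors between horns given below are from the model without the sow unless a block is named. They therefore include the spread between sows.

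The same matrix genes differed clearly between the sows. In a test of the 3 sows that allowed for the horn, 22 of the 101 probe sets passed (limma moderated F test, adjusted p under 0.05), which is 21.8%, beside 11.3% of all probe sets. All 22 were among the 40 with a signal above the median, where they made up 55% of the matrix probe sets, beside 20.8% of all probe sets as bright. Without adjustment 34 had a p under 0.05 (25% of all probe sets), of which 30 lay above the median (40.3% of all as bright). The 22 stand for 19 genes. In 19 of the 22 the mean of sow 1 was the highest, and in 18 the mean of sow 2 was the lowest. From the highest to the lowest sow they spanned 0.52 to 1.38 on the log2 scale, with a median of 0.93, while the size of the difference between horns was 0.01 to 0.53, with a median of 0.07. The test rests on the spread between the 2 horns of a sow, and on variances moderated toward a trend on the signal. When variances were moderated toward 1 common value whatever the signal, 0 members and 0 of all probe sets passed. There 22 members had an unadjusted p under 0.05 against 15.5% of all. Without the array of the oocyte horn of sow 1, 14 passed (5.49% of all), of which 12 were among the 22.

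**Figure D1:**
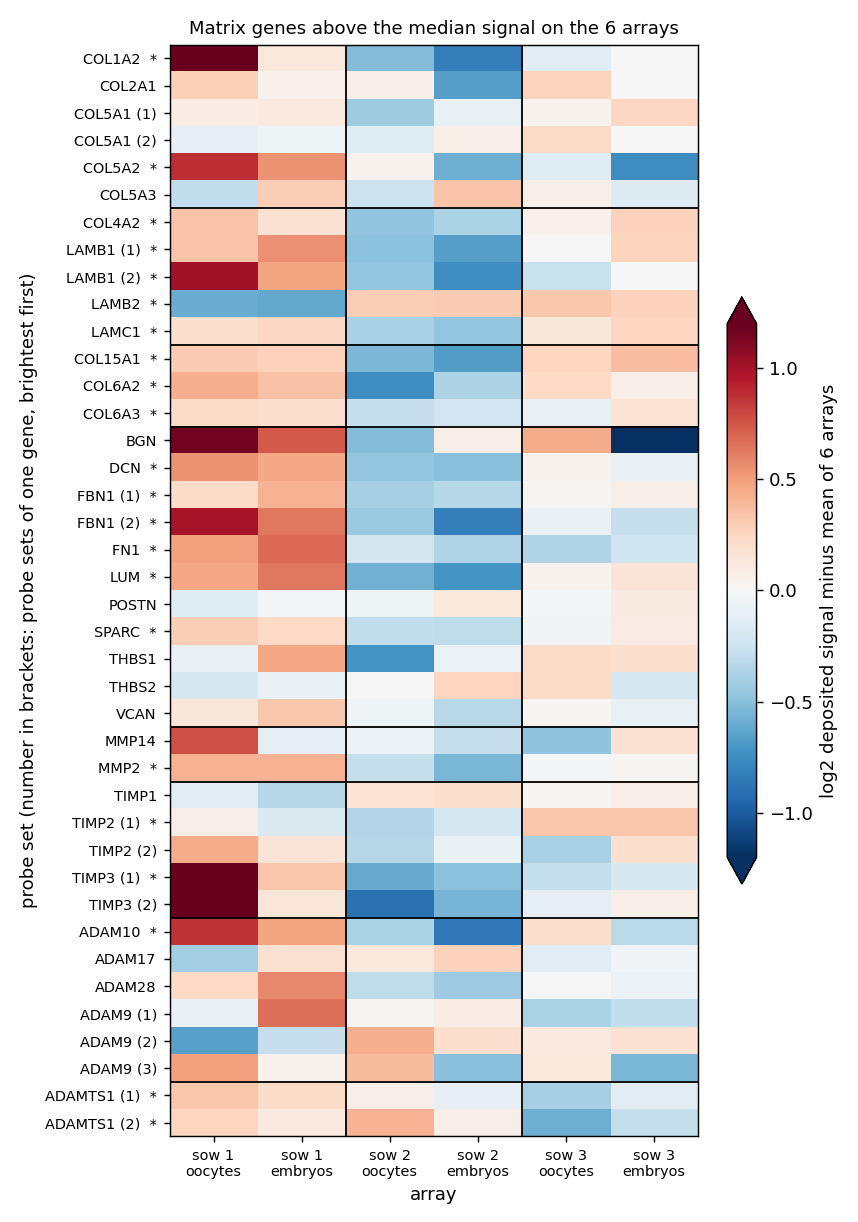
Log2 deposited signal of the 40 matrix probe sets above the median signal (rows, grouped by role with black lines) on the 6 arrays (columns, ordered by sow), each minus its mean over the arrays; the colour scale is in log2 units and an asterisk marks an adjusted p under 0.05 between sows. Most rows are red in both horns of sow 1 and blue in both horns of sow 2, and LAMB2 is blue in sow 1.

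Proteoglycans and glycoproteins of the stroma held 6 of the 22 probe sets that passed between sows. Lumican (LUM), which binds collagen fibrils, had signals of 1616, 790 and 1209 in the oocyte horns of sows 1, 2 and 3 and of 1818, 715 and 1311 in their embryo horns. Both horns of sow 1 were above, and both horns of sow 2 below, every other array. The difference between sows 1 and 2 was 1.24 (log2), a 2.37-fold higher signal in sow 1, with an adjusted p of 0.000190 between sows from limma. Between horns lumican differed by 0.05 (standard error 0.37).

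Decorin (DCN), another collagen-binding proteoglycan, had 2437, 1217 and 1729 with oocytes and 2312, 1185 and 1581 with embryos. The order of the sows was that of lumican, and the horns of each sow lay close together. Sow 1 exceeded sow 2 by 1.03 (log2, 2.05-fold, adjusted p = 0.000190 from limma). Decorin was lower with embryos in each sow, by -0.08 (standard error 0.30; blocking by sow gave 0.07, with an adjusted p of 0.807 in limma). Another decorin probe set had signals of only 0.1 to 4.6, and did not pass (adjusted p = 0.140). SPARC, a secreted protein that binds collagen, had 4247, 2826 and 3386 with oocytes and 4071, 2798 and 3694 with embryos. It was 1.52-fold higher in sow 1 than in sow 2 (adjusted p = 0.00530 from limma).

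Fibronectin (FN1), which links collagen to the integrins of the cell surface, had 786, 479 and 436 with oocytes and 893, 436 and 475 with embryos. Here sow 1 stood apart while sows 2 and 3 overlapped, and sow 1 exceeded both by 0.93 (log2, adjusted p = 0.000620 from limma). Fibrillin (FBN1), the core of elastic microfibrils, was measured above the median by 2 probe sets. One had 212, 138 and 186 with oocytes and 243, 143 and 190 with embryos (adjusted p = 0.00889), and the other 103, 38.0 and 49.1 and 80.6, 29.4 and 42.7 (adjusted p = 0.00569). Both put the sows in the order 1, 3, 2. Between horns they differed by 0.09 and -0.31 (standard errors 0.24 and 0.43, or 0.10 and 0.17 when blocked by sow). The first was higher and the second lower with embryos in each sow. Neither passed with the block (adjusted p = 0.849 and 0.641, limma).

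Not every gene of this group followed the sows. Periostin (POSTN), a matrix protein of fibroblasts, had 77.7, 82.5 and 84.6 with oocytes and 84.8, 93.8 and 92.1 with embryos, with a standard deviation of 0.11 (log2) over the arrays. Its sow means spanned 0.15 (adjusted p = 0.765 between sows). Biglycan (BGN), a relative of decorin, had 95.2, 29.7 and 57.8 with oocytes and 71.0, 44.8 and 11.4 with embryos. The horns of sow 3 were far apart for biglycan, and it did not pass between sows (adjusted p = 0.171) although its sow means spanned 1.61. Versican (VCAN), a large proteoglycan of loose matrix, and the thrombospondins THBS1 and THBS2, which bind matrix and cells, did not pass either (adjusted p = 0.368, 0.191 and 0.593 at their probe sets above the median). Of 27 probe sets in the group 11 lay above the median and 6 passed (11.3% of all probe sets).

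**Figure D2:**
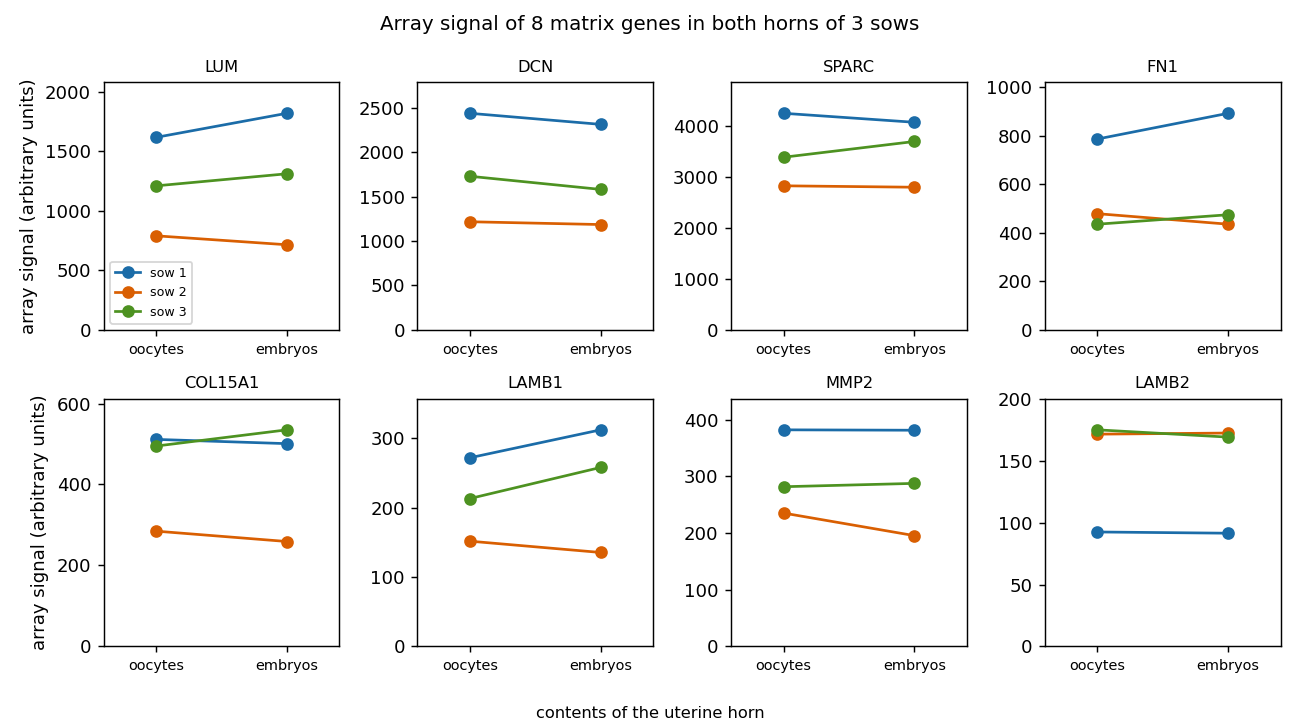
Deposited array signal (arbitrary units, linear axis from 0) of LUM, DCN, SPARC, FN1, COL15A1, LAMB1, MMP2 and LAMB2 in the horn with oocytes and the horn with embryos; points are arrays and lines connect the horns of a sow. Lines run nearly level and cross only between sows 1 and 3 for COL15A1 and between sows 2 and 3 for FN1 and LAMB2, with sow 1 at the top for LUM, DCN, SPARC, FN1, LAMB1 and MMP2 and at the bottom for LAMB2.

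Of 8 basement membrane probe sets 5 lay above the median, and all 5 passed between sows (20.8% of all probe sets as bright). The other 3, all of LAMC1, did not pass (adjusted p = 0.876, 0.371 and 0.766 from limma). The last of these differed between horns by -0.68 (standard error 0.46). Type IV collagen (COL4A2), the network of the basement membrane, had 319, 181 and 260 with oocytes and 285, 193 and 305 with embryos. The laminin chain LAMC1 had 305, 204 and 293 with oocytes and 316, 193 and 318 with embryos at its brightest probe set. For either chain the arrays of sow 2 were below all others while sows 1 and 3 overlapped, and sow 1 exceeded sow 2 by 0.74 and 0.69 (log2, adjusted p = 0.00792 and 0.00448 from limma). The laminin chain LAMB1 had 272, 152 and 213 with oocytes and 312, 136 and 258 with embryos at one probe set, and sow 1 was 2.08-fold above sow 2 (adjusted p = 0.00206 from limma). At its other probe set LAMB1 had 101, 36.4 and 41.6 and 69.7, 29.9 and 50.1, again highest in both horns of sow 1 (adjusted p = 0.0223).

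LAMB2, another laminin beta chain, ran the other way. It had 92.7, 172 and 175 in the oocyte horns and 91.7, 173 and 170 in the embryo horns. Both horns of sow 1 were below all other arrays, and sows 2 and 3 overlapped. Sow 1 was lower than sow 2 by a log2 difference of -0.89 and than sow 3 by -0.88 (adjusted p = 0.00206 from limma), while the horns differed by -0.02 (standard error 0.32). Among the 22 probe sets that passed, LAMB2 was the 1 whose lowest mean was in sow 1.

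Type XV collagen (COL15A1), which sits at the outer face of basement membranes of vessels and muscle, had 511, 285 and 495 with oocytes and 501, 259 and 535 with embryos. Sows 1 and 3 overlapped and both horns of sow 2 were lower, with a difference of 0.95 between sows 1 and 2 (log2, adjusted p = 0.000515 from limma). Type VI collagen forms beaded filaments around cells. Its chain COL6A2 had 133, 58.6 and 116 with oocytes and 125, 76.0 and 104 with embryos (adjusted p = 0.0166). Its chain COL6A3 had 907, 639 and 729 and 888, 658 and 864 (adjusted p = 0.0193). For both chains the arrays of sow 1 were above, and those of sow 2 below, all others. The other 8 probe sets of this group, of types VII, VIII, X and XVII collagen, lay below the median, at signals of 1.0 to 51.8, and 0 of them passed.

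Fibrillar collagens held 2 of the 22. COL1A2, a chain of type I collagen, had 267, 73.5 and 95.5 with oocytes and 115, 59.6 and 106 with embryos at its probe set above the median. The oocyte horn of sow 1 was the highest array by far, and sow 1 exceeded sow 2 by 1.38 (log2, adjusted p = 0.0208 from limma). Its other probe set, at 20.6 to 34.8, did not pass (adjusted p = 0.663). COL5A2, a chain of type V collagen, which sits inside type I fibrils, had 76.2, 42.6 and 37.4 with oocytes and 60.1, 27.6 and 24.7 with embryos. It was lower with embryos in each sow, by -0.53 (standard error 0.38; blocking by sow gave 0.19, with an adjusted p of 0.492 in limma), and highest in sow 1 (adjusted p = 0.0310 between sows). COL5A1, the partner chain, had 263, 185 and 255 with oocytes and 269, 233 and 295 with embryos. It was higher with embryos in each sow, by 0.19 (standard error 0.18) at its brightest probe set, and it did not pass. A second COL5A1 probe set above the median had 124, 120 and 155 with oocytes and 128, 139 and 133 with embryos, with a difference of 0.01 (standard error 0.16), and there the embryo horn of sow 3 was below its oocyte horn. Of 18 fibrillar probe sets 6 lay above the median and 2 passed between sows (11.3% of all probe sets).

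MMP2, the gelatinase that cuts type IV collagen and denatured collagen, was the 1 MMP that passed between sows. It had 382, 235 and 282 with oocytes and 382, 196 and 288 with embryos. The arrays of sow 1 were above and those of sow 2 below all others, with a difference of 0.88 between them (log2, 1.84-fold, adjusted p = 0.00275 from limma). MMP14, the membrane-bound protease that activates MMP2, had 106, 59.3 and 44.3 with oocytes and 57.4, 51.3 and 69.8 with embryos. The sows overlapped and it did not pass (adjusted p = 0.548). The other 10 MMP probe sets lay below the median. MMP9, the other gelatinase, had signals of 3.2 to 19.1, MMP7 (matrilysin) 1.0 to 5.6 and MMP1 (a collagenase) 0.2 to 2.8.

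Among the inhibitors, TIMP1 had 397, 486 and 441 with oocytes and 341, 494 and 457 with embryos. The arrays of sow 1 were the lowest, but it did not pass (adjusted p = 0.109). TIMP3, which is bound in the matrix and also inhibits ADAM proteases, had 128, 35.7 and 44.4 with oocytes and 68.1, 38.6 and 47.6 with embryos at one probe set (adjusted p = 0.0337). Sow 1 was highest in both horns, most of all in its oocyte horn. The other TIMP3 probe set above the median had the same order of arrays in sow 1 (87.0 with oocytes and 37.8 with embryos) and did not pass (adjusted p = 0.117). The probe sets of TIMP2, which helps to activate MMP2, disagreed. One had 278, 205 and 330 with oocytes and 233, 226 and 331 with embryos, with sow 3 highest (adjusted p = 0.0243), and the other had 292, 169 and 164 and 239, 203 and 245, with sow 1 highest on average (adjusted p = 0.144). The probe sets of TIMP4 lay between 0.5 and 14.4.

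ADAMTS1, which cuts versican, passed between sows with both of its probe sets and was lowest in sow 3. One had 534, 451 and 323 with oocytes and 496, 397 and 388 with embryos (adjusted p = 0.0307). The other had 306, 341 and 169 and 276, 270 and 209 (adjusted p = 0.0206). Neither differed between horns by more than 0.07 (log2).

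**Figure D3:**
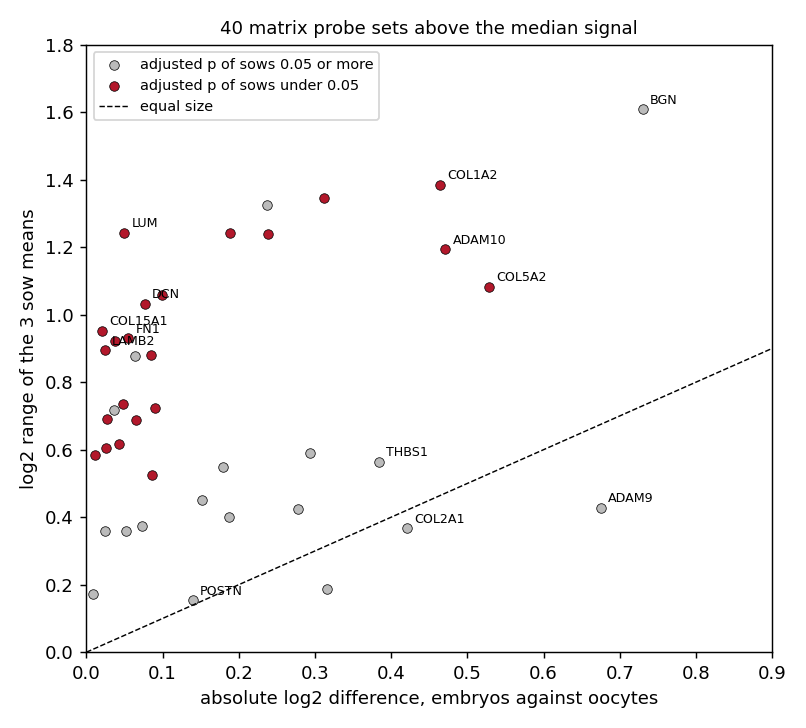
Range of the 3 sow means (vertical axis, log2) against the absolute difference between embryo and oocyte horns (horizontal axis, log2) for the 40 matrix probe sets above the median signal; each point is 1 probe set, red points passed between sows at an adjusted p under 0.05 and the dashed line marks equal size. For 37 of 40 the sows span more than the horns differ, as for 87.6% of all probe sets as bright.

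Over all 40 matrix probe sets above the median, the sow accounted for a median of 83.1% of a probe set's sum of squares over the 6 arrays. Over all probe sets as bright it was 66.3%. The horn accounted for 2.69% beside 7.95%. These shares were not adjusted for the sow having more terms than the horn, so the sow and horn shares are not directly comparable. The median standard deviation of the 40 over the arrays was 0.39 (log2) beside 0.24. Of all 101 probe sets, 37 (36.6%) had sow means in the order 1, 3, 2, against 20.4% of the array. In 21 of the 40 (52.5%) the sow means ran in the order 1, 3, 2, as in 22.2% of all probe sets as bright. Both horns of sow 1 were above every other array in 19 of the 40 (47.5%), against 18.6%, and both horns of sow 2 below every other array in 20, against 13.5%. These are descriptions of 3 animals, and the sow cannot be told apart from anything done sow by sow.

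The ADAM proteases held the 1 matrix probe set that was lower with embryos at an unadjusted p under 0.05. ADAM9, a membrane protease that sheds surface proteins, was measured by 4 probe sets, 3 of them above the median. At one of these the oocyte horns had 74.4, 68.9 and 57.8 and the embryo horns 54.5, 37.4 and 36.1. All 3 embryo horns were below all 3 oocyte horns, as were the normalized values of 2 of the 101 matrix probe sets and 3.98% of all probe sets. The log2 difference was -0.67 (standard error 0.23, 95% interval -1.19 to -0.16, unadjusted p = 0.0159 and adjusted p = 1.00, limma), and the unadjusted p was 0.00290 with the sow as a block. The other ADAM9 probe sets above the median did not show this difference. One had 60.8, 65.7 and 49.7 with oocytes and 102, 68.8 and 52.6 with embryos, higher in each sow, by 0.29 (standard error 0.26), and the other had 35.6, 75.8 and 60.7 and 46.2, 64.6 and 63.4, a difference of 0.06 (standard error 0.32). As the mean of its probe sets ADAM9 differed by -0.03.

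ADAM10, a protease that sheds Notch receptors and cadherins, had 96.6, 40.6 and 60.9 with oocytes and 73.5, 29.2 and 42.2 with embryos. The embryo horn was lower in each sow, and the sows were further apart than the horns. The log2 difference was -0.47 (standard error 0.38) without the block, and with it the standard error was 0.17 and the adjusted p 0.471 (limma). ADAM10 is on the study's list of altered probe sets, which was chosen on the same arrays, so this direction is not independent evidence. The study fitted the intensities of single probes and used a Bonferroni adjustment. Its calls and the adjusted p given here are therefore unlike measures. Sow 1 exceeded sow 2 by 1.19 (log2, adjusted p = 0.0114 between sows from limma). ADAM17, the sheddase of tumour necrosis factor, and ADAM28 differed between horns by 0.28 and 0.04 at their probe sets above the median (standard errors 0.24 and 0.27).

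**Figure D4:**
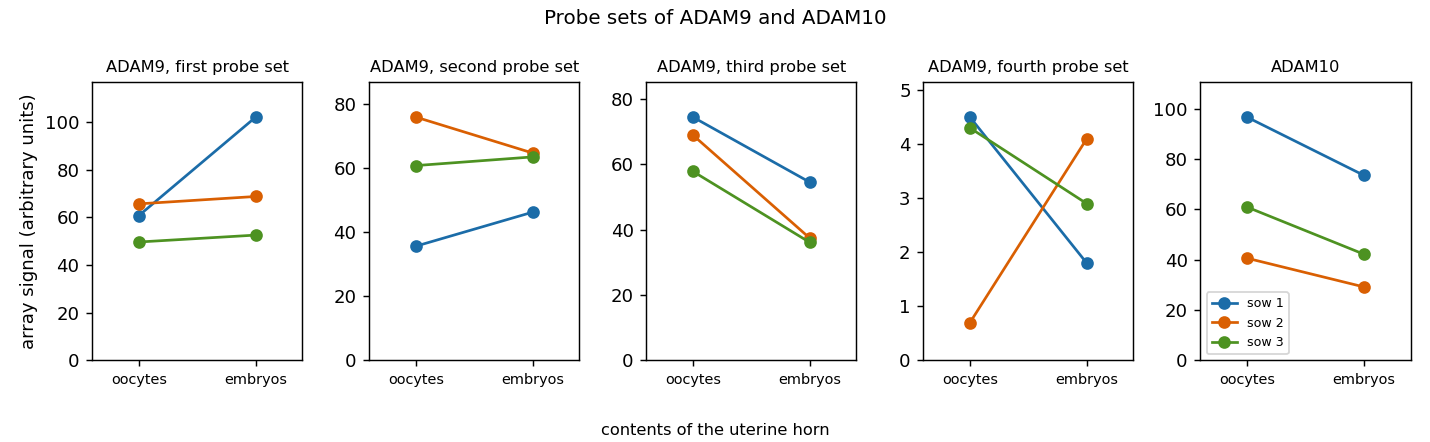
Deposited array signal (arbitrary units, linear axes from 0) of the 4 probe sets of ADAM9 and the probe set of ADAM10 in the horn with oocytes and the horn with embryos; points are arrays and lines connect the horns of a sow. All 3 lines fall at the third ADAM9 probe set and at ADAM10, and all 3 rise at the first ADAM9 probe set.

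The 1 matrix probe set higher with embryos at an unadjusted p under 0.05 belongs to MMP3 (stromelysin), a protease of wide specificity. It had 0.3, 0.3 and 1.1 in the oocyte horns and 13.6, 1.1 and 7.7 in the embryo horns, all near the lower end of the array. The difference was 3.35 on the log2 scale (standard error 1.09, unadjusted p = 0.0143, limma), and 0.26 when 32 was added to each signal before the logarithm. The other MMP3 probe sets, also dim, differed by -0.28, 0.66 and 0.41 (standard errors 0.83, 0.68 and 0.75). After normalization the groups overlapped at every MMP3 probe set. Besides the ADAM9 probe set above, the matrix probe sets whose groups did not overlap were of COL2A1 and COL5A1. COL2A1, a cartilage collagen, had 43.8, 37.5 and 43.0 with oocytes and 37.2, 22.6 and 35.6 with embryos (-0.42, standard error 0.25). A dim COL5A1 probe set had 15.0, 16.0 and 6.2 with oocytes and 20.9, 15.7 and 17.9 with embryos, which overlapped as deposited but not after normalization, where 1 matrix probe set was higher in all embryo horns, against 4.03% of all probe sets. The reverse held for periostin, given above, and for a COL8A1 probe set with 5.1, 10.9 and 4.1 with oocytes and 11.3, 16.1 and 12.2 with embryos: their groups did not overlap as deposited but did after normalization.

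For most other probe sets with the smallest p between horns, the signal was low and probe sets of 1 gene gave opposite signs. COL8A1, a short chain collagen of vessel walls, had a log2 difference of 1.07 (standard error 0.54) at a probe set with signals of 4.1 to 16.1, and of -1.36 (standard error 0.80) at one with 1.5 to 13.4. THBS1 had 63.1, 40.9 and 78.6 with oocytes and 92.8, 64.0 and 76.7 with embryos at its bright probe set, a difference of 0.38 (standard error 0.26), and -1.49 (standard error 0.87) at a probe set with signals of 0.5 to 5.7. The sheddase ADAM17 gave 1.13 (standard error 0.80) and -0.65 (standard error 0.45) at dim probe sets. None of these genes had a direction that all of its probe sets shared.

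Other members had low signals and wide errors. COL17A1, a collagen that anchors epithelial cells to the basement membrane, differed by -1.08 (standard error 0.63) at signals of 5.4 to 23.8, and MMP20, a protease of tooth enamel, by -1.60 (standard error 1.04) at 0.3 to 3.1. COL5A3, another type V collagen chain, differed by 0.32 (standard error 0.26) at 29.7 to 46.3 and by 1.15 (standard error 0.93) at 1.4 to 18.6. COL3A1, the type III fibrillar collagen of soft tissue, had 32.1, 15.4 and 34.4 with oocytes and 48.1, 4.0 and 23.1 with embryos. Its arrays of sow 2 were the lowest, and it did not pass between sows (adjusted p = 0.0525 from limma). LOX, which cross-links collagen, had signals of 2.5 to 30.9 over its probe sets, and the proteases ADAMTS6 and ADAMTS20 had 11.4 to 39.9 and 1.3 to 11.8.

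Genes that work on the matrix beside these were taken from lists by function. Of 14 probe sets for collagen processing and cross-linking 0 passed between horns (0% of all probe sets), and 3 passed between sows (11.3% of all). At an unadjusted p under 0.05, 1 was higher with embryos (1.3% of all) and 1 lower (1.59% of all). LOXL4, a collagen cross-linking oxidase, had 16.1, 14.9 and 13.3 with oocytes and 25.7, 25.9 and 25.0 with embryos (0.78, standard error 0.30). P4HA2, a collagen prolyl hydroxylase, had 97.8, 96.6 and 86.4 with oocytes and 76.8, 73.6 and 64.8 with embryos (-0.39, standard error 0.17). In both the groups did not overlap, as in 4.03% of all probe sets upward and 3.98% downward, and the adjusted p was 1.00 (limma). The LOXL4 probe set lay below the median signal. Dimmer LOXL4 probe sets differed by 0.76 and -0.05 (standard errors 0.54 and 0.65). A brighter P4HA2 probe set, at signals of 360.5 to 604.3, differed between horns by only 0.05 (standard error 0.21). SERPINH1, the chaperone of collagen, was highest in sow 1 (adjusted p = 0.0228 between sows from limma). PLOD1, a lysyl hydroxylase, and P4HA2 were lower in sow 1 than in sow 2 at their brighter probe sets. The log2 differences were -0.54 and -0.65 (adjusted p = 0.00946 and 0.00419). The dimmer P4HA2 probe set did not pass between sows (adjusted p = 0.615).

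The basement membrane partners NID2 (nidogen) and FBLN1 (fibulin) were the 2 of 7 probe sets in their list that passed between sows (11.3% of all). NID2 had 271, 117 and 238 with oocytes and 302, 124 and 269 with embryos, and FBLN1 282, 148 and 189 and 292, 167 and 244. Both had the order 1, 3, 2 in either horn, as did many of the matrix genes above. Of 11 probe sets for other matrix proteins 5 passed between sows, beside the same 11.3%. SPARCL1, a relative of SPARC, had 437, 179 and 313 with oocytes and 437, 178 and 357 with embryos, and MGP, an inhibitor of calcification, 273, 210 and 614 and 227, 190 and 446. In MGP sow 3 was highest, and the embryo horn was lower in each sow by -0.29 (standard error 0.42, or 0.09 when blocked by sow). Of 9 probe sets of the plasminogen system and protease inhibitors 3 passed between sows (11.3% of all). Among them was PLAU (urokinase), which had 139, 60.3 and 72.5 with oocytes and 166, 55.1 and 87.2 with embryos. None of these 3 lists held a probe set with an unadjusted p under 0.05 between horns in the test without the sow. Over all probe sets 1.3% were higher and 1.59% lower in that test, and 3.75% and 4.95% with the sow as a block. Blocking by sow gave 1 higher in the list of basement membrane partners (EFEMP2) at an unadjusted p under 0.05. It gave 1 higher (CYR61) and 1 lower (MGP) among other matrix proteins and 1 higher (TFPI2) in the plasminogen list. After adjustment 0 were left. In sows 1, 2 and 3 EFEMP2 differed by -0.16, 1.94 and 1.12 at this probe set, which lay below the median signal. Its other probe sets differed by 0.17 and -0.16 (standard errors 0.25 and 0.77 without the block). CYR61 differed by 0.39, -0.11 and 0.56 in the 3 sows, and TFPI2 by 0.17, 2.29 and 0.29.

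Markers of other cell types moved with the sows too. The stromal fibroblast list (6 of 8 genes measured) summed to 3398, 1790 and 2229 with oocytes and 2997, 1846 and 2497 with embryos, and the smooth muscle list (6 of 7 genes) to 2276, 565 and 925 and 1555, 684 and 1017. Both sums were highest in both horns of sow 1 and lowest in both horns of sow 2, and VIM and ACTA2 made up most of them. The median gene of the fibroblast list lay 0.30, -0.02 and -0.12 (log2) from its mean with oocytes and 0.03, 0.05 and -0.01 with embryos, so the median did not show this order. For smooth muscle the median gene lay at 1.28, -0.62 and -0.30 and at 0.57, -0.20 and -0.45, highest in sow 1 in either horn. The epithelium list (6 of 7 genes) was lowest in sow 1, with 7580, 9845 and 9533 with oocytes and 7391, 9580 and 10058 with embryos.

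Single markers differed in their order. Of 12 fibroblast probe sets 6 passed between sows, and of 8 for smooth muscle 3 passed (11.3% of all probe sets). PDGFRB (fibroblasts) at its brighter probe set and TAGLN (smooth muscle) were highest in sow 1 and lowest in sow 2 (adjusted p = 0.0130 and 0.000338 from limma). The dimmer PDGFRB probe set did not pass (adjusted p = 0.495). VIM had 2670, 1209 and 1630 with oocytes and 2266, 1256 and 1867 with embryos (adjusted p = 0.000949 between sows), and ACTA2 1559, 337 and 646 and 1021, 430 and 756 (adjusted p = 0.000965). KRT8, an epithelial keratin, had 2128, 3565 and 3273 and 2239, 3452 and 3592 (adjusted p = 0.00163). CDH1 was also lowest in sow 1 at its brightest probe set (adjusted p = 0.0112), but highest there at a dimmer one (adjusted p = 0.118). MUC1 at its brighter probe set was highest in sow 1, with 32.7, 20.5 and 20.4 and 34.9, 26.0 and 21.8 (adjusted p = 0.517). EPCAM, KRT18 and KRT19 did not pass (adjusted p = 0.526, 0.335 and 0.118). The fibroblast marker NR2F2 was highest in sow 1 too, with 312, 241 and 256 with oocytes and 356, 249 and 255 with embryos (adjusted p = 0.0245). THY1, another fibroblast marker, was highest in sow 2, with 67.1, 89.1 and 58.1 and 59.9, 87.6 and 51.8, and did not pass (adjusted p = 0.0527). S100A4 went against the sum of its list, with 18.7, 39.6 and 47.1 with oocytes and 19.3, 59.0 and 55.6 with embryos. The endothelium list (7 of 7 genes) summed to 273 to 401 and was lowest in sow 2, the leukocyte list (6 of 7 genes) summed to 224 to 316, and the blood list (2 of 3 genes) to 362 to 966 with its lowest values in sow 1. The smooth muscle gene MYH11 was not analysed here. MYLK, another smooth muscle gene, was dim at 2.0 to 5.2, and so was the endothelial receptor KDR at 0.4 to 5.7.

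A measure of RNA quality taken from the arrays also moved with the sow. The paper states that only samples without degradation of ribosomal RNA were used. It gives RNA integrity numbers as a range for all samples and not by sow. For GAPDH the array holds control probe sets at both ends of the transcript, and the 5'/3' ratio of their signals drops with RNA decay. In the oocyte horns of sows 1, 2 and 3 it was 0.355, 0.200 and 0.226, and in the embryo horns 0.243, 0.130 and 0.199. In each group it was highest in sow 1 and lowest in sow 2, which is the order of the sow means in 17 of the 22 matrix probe sets that passed. The ratio was lower in the embryo horn of each sow than in its oocyte horn, and so were those of actin, at 0.219, 0.105 and 0.118 against 0.149, 0.0577 and 0.104, and of EF1A, at 1.27, 1.14 and 1.14 against 1.12, 0.871 and 1.10. The part of the cell markers and of these ratios in the differences between sows, or between horns in genes such as ADAM9, ADAM10 and P4HA2, was not tested.

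**Figure D5:**
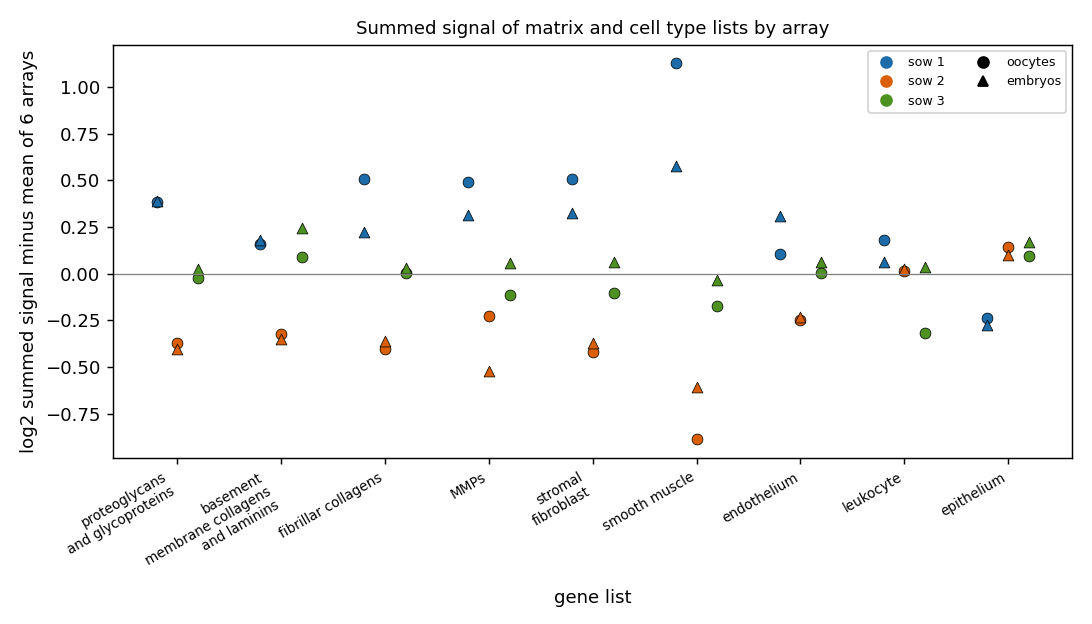
Summed array signal of 4 groups of matrix genes and 5 lists of cell type markers (horizontal axis), as log2 minus the mean of the 6 arrays (vertical axis), with each gene at its brightest probe set; circles are oocyte horns, triangles embryo horns and colours sows. Sow 1 is highest and sow 2 lowest in the sums of proteoglycans, fibrillar collagens, stromal fibroblast (mostly VIM) and smooth muscle (mostly ACTA2), and sow 1 is lowest in epithelium.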

How the data were processed

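The 6 arrays, 3 per group, came from both horns of 3 sows. The authors deposited intensity signals per probe set made with Microarray Suite (MAS5) 5.1, per the labels, with each array scaled to a mean of 100.02 over its signals other than the top and bottom 2%. Lowess, which the methods name, had not been applied to them. Detection calls were not used here. Arrays have no sequencing depth, and their number limits the precision. The median signal was 30.6 to 35.8, and between 25.4% and 29.0% of signals were under 10 on any array.

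Signals under 0.1 were set to 0.1, put on log2 and normalized by cyclic loess. After 124 control probe sets were removed, 23999 were tested with limma 3.58.1 in R 4.3.3 (group alone, moderated variances with a trend on the signal, Benjamini-Hochberg adjustment at 0.05 over all probe sets). The sow test was a moderated F test in a model of group and sow. Both were tested on simulated data. One symbol was given for 10069 probe sets, several for 198 and none for 13732, and all 51 gene identifiers were found in the current RefSeq pig table. Figures used matplotlib 3.10.9 (Python 3.11.15).

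Both groups carry replicate numbers 1 to 3 in the labels. Dividing the MAL signals of equally numbered arrays gave the 6 ratios listed by sow in the methods, and equal numbers were therefore read as one sow. After removal of group means, such arrays correlated at 0.207, 0.173 and 0.100.

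The members and lists were chosen with earlier results of these data known. Genes named are up to 4 of each role with the highest signal, and the 10 members with the smallest p between sows. Also named are the 10 in each direction with the smallest p between horns, genes whose bright probe sets disagree in sign, and ADAM10. For the further lists, naming the 4 genes with the smallest p was planned but not followed. Their genes were named after their values were seen. Each had passed between sows, or had an unadjusted p under 0.05 between horns with or without the block (limma). BGN, POSTN, THBS2, COL3A1, LOX, MMP1, MMP7, markers, and further genes that passed between sows were named after their values were seen. As alternatives the fits were run on deposited values, after quantile normalization or median scaling, with 32 added to each signal, on bright probe sets alone, without the variance trend, with sow as a block (horn test), without the group term (sow test), on gene means, and without each array.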

Additional observations from a re-analysis of the deposited data

How the results depend on the processing

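The count of 0 matrix probe sets at an adjusted p under 0.05 between horns held under every alternative. Of 709 recomputed differences between horns of the 52 probe sets named by rule, 76 changed sign, and 0 were called. At an unadjusted p under 0.05, 0 were higher with bright probe sets only, 0 were higher and 0 lower with gene means, and the paired fit with sow as block had 3 lower and 1 higher. The block changed no call at the adjusted threshold. Leaving out 1 array at a time gave 0 to 2 higher (0 without embryos replicate 1 or 3 and 2 without any of the others) and 1 to 3 lower (3 without oocytes replicate 2, and 2 without oocytes replicate 3 or embryos replicate 1 or 3). The median difference was then -0.10 (without embryos replicate 1) to 0.14 (without oocytes replicate 1). The cause of these changes was not tested.

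Between sows, 22 matrix probe sets passed as reported and 18 to 25 under the other normalizations, 32 added to each signal, bright probe sets only and no group term. Median scaling lost COL6A3, SPARC and 1 of 2 ADAMTS1 probe sets. Without a variance trend 0 passed. A fit without the trend on bright probe sets alone was added after the data were seen, and there 16 of 40 passed (16% of all). Gene means gave 12 of 51 genes (12.8% of all genes), and the difference of sow 1 from sow 2 turned for DCN (-1.29), FN1 (-0.000780) and TIMP3 (-0.0895), where dim probe sets enter the mean. Leaving out 1 array gave 14 (without oocytes replicate 1, 5.49% of all) to 30 (without embryos replicate 3, 15.2% of all). Low signals limit the 61 dim probe sets, for which differences between horns had wide standard errors.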
